A study of Homo sapiens with 6 samples.

Results

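The genes of the proteasome, found as the symbols PSMA, PSMB, PSMC, PSMD, PSME or PSMF followed by digits alone, were followed on 6 single-colour arrays of breast cancer cells. Of the 17687 genes measured, 40 met this rule, each through 1 probe set. PSMC5, PSMD7, PSMD13 and PSME2 were not analysed here. For the 3 siPGC1alpha arrays, 4175 cells received an siRNA directed at PGC-1alpha, a coactivator of genes of energy metabolism, and for the 3 sicontrol arrays they received a control siRNA. Both siRNAs were added 24 hours after plating and left for 48 hours. 4175 is a lung-seeking variant of the triple-negative line MDA-MB-231, and no label says that the replicates were separate cultures, so the spread behind each p-value is that of these samples alone and may be technical.

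The proteasome is the protease that breaks down proteins tagged with ubiquitin. Its core particle is a barrel of stacked rings, with outer alpha rings that gate the entrance and inner beta rings that hold the catalytic sites. A cap of ATPases and other subunits binds ubiquitin, unfolds the substrate and feeds it into the barrel. Interferon induces replacement catalytic subunits that form the immunoproteasome, which favours peptides for presentation on HLA class I. When proteasome activity falls short, the transcription factor NFE2L1 is known to raise the subunit genes as a group, and tumour cells with a high load of faulty protein depend on this supply.

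siPGC1alpha replicate 1 stood apart from the other 5 arrays, so each result is given with and without it. Its signals correlated with those of the others at a Pearson r of 0.585 to 0.604 across all genes, which are not independent replicates, against 0.995 to 0.996 among the other 5. PPARGC1A, the gene of PGC-1alpha, read 7.95, 6.52 and 6.47 on siPGC1alpha replicates 1, 2 and 3, against 6.45, 6.49 and 6.49 on the sicontrol arrays. No siPGC1alpha array lay below the lowest sicontrol array, so the target gene does not bear out the label, and siPGC1alpha here means the libraries labelled so. The median signal of the 612 negative control probe sets was 3.79, 3.37 and 3.41 on the siPGC1alpha arrays, against 3.44, 3.27 and 3.37 on the sicontrol arrays. Vimentin (VIM) and CD44, markers of this mesenchymal line, had sicontrol means of 12.80 and 11.04. The number of arrays limits the precision.

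No proteasome gene passed the test between the groups. All values are log2 signals, and each difference is siPGC1alpha minus sicontrol, taken between means. With all 6 arrays, 0 of 40 members passed at a limma adjusted p under 0.05 (0% of all genes did), and their adjusted p ran between 0.663 and 0.899. Without siPGC1alpha replicate 1, 0 of 40 passed again (0% of all genes), and each member had a limma adjusted p of 0.9998. An unadjusted p under 0.05 was seen for 0 members in either comparison, against 0.017% of all genes with 6 arrays and 4.44% with 5.

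Without replicate 1 the differences of the members were small and went both ways. Of the 40, 24 lay above 0 and 16 below, as did 53.5% and 46.5% of all genes. Their median difference was 0.015, beside 0.0080 over all genes, and it became -0.00050 after quantile normalization. With all 6 arrays the median was -0.50, beside 0.19 over all genes, and -0.29 after quantile normalization. Among genes in the brightest 25% by sicontrol mean, the 6-array median was -0.512 for the 34 members and -0.505 for all such genes. On the single arrays the median of the 40 signals was 8.74, 10.15 and 10.20 on siPGC1alpha replicates 1, 2 and 3, against 10.19, 10.14 and 10.14 on the sicontrol arrays. Replicates 2 and 3 thus lay at or close to the range of the sicontrol arrays, and replicate 1 lay far below it. RNA of whole cultures was measured, so fewer cells of a kind and less RNA per cell cannot be told apart.

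**Figure D1:**
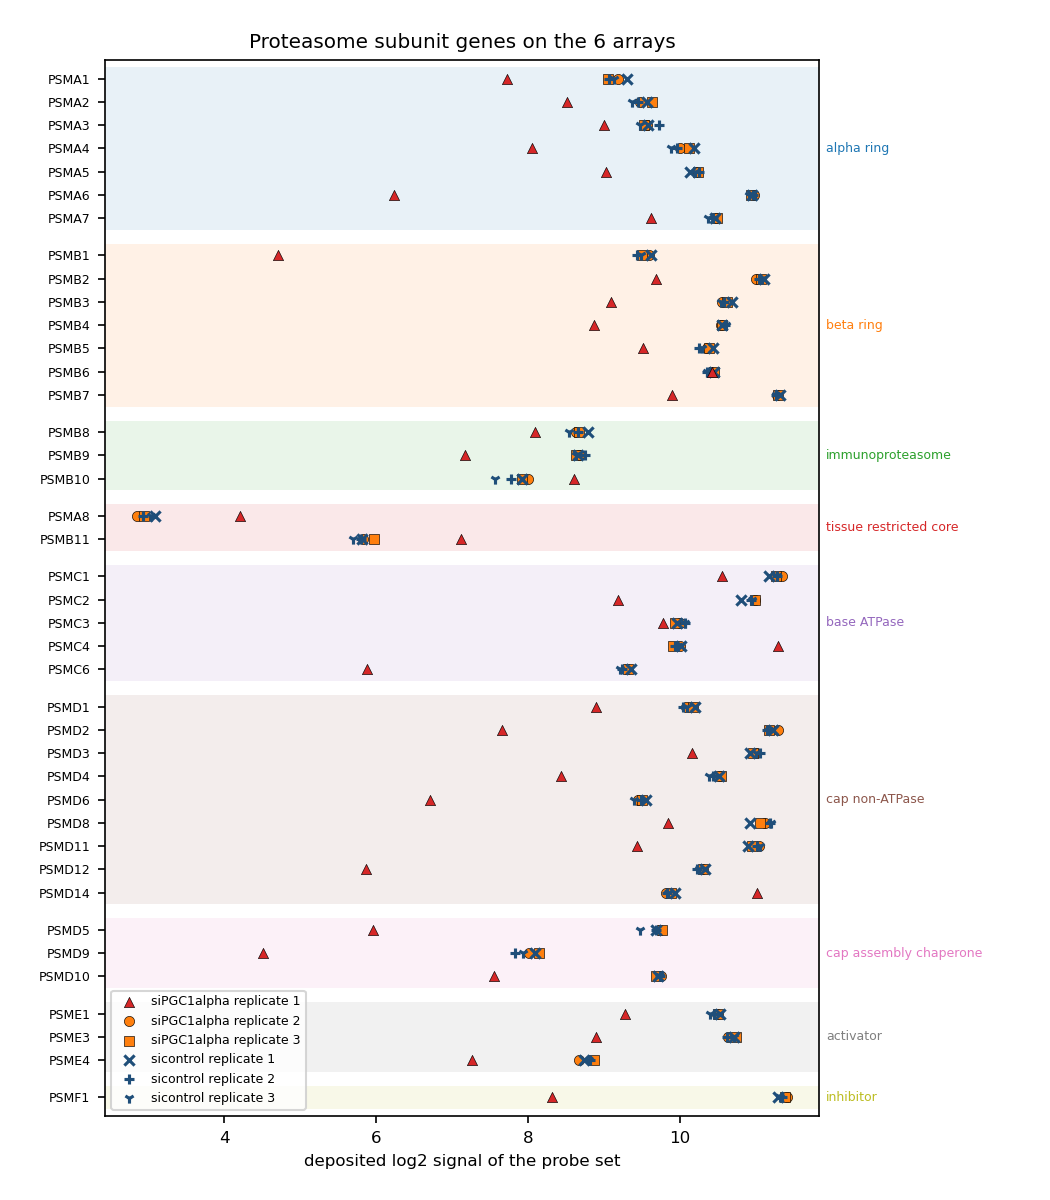
Log2 signal (horizontal axis) of the 40 proteasome genes, grouped by role, on the 3 siPGC1alpha arrays (red triangle for replicate 1, orange circle and square for replicates 2 and 3) and the 3 sicontrol arrays (blue crosses). The orange and blue symbols lie close together in every row, while the red triangle lies left of them in 34 of 40 rows.

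The 5 arrays other than siPGC1alpha replicate 1 bounded the differences closely. The 95% interval of the difference lay within 1.25-fold in either direction for 36 of 40 members (55.8% of all genes). Among genes in the brightest 25% by sicontrol mean the shares were 33 of 34 members (97.1%) and 90% of all such genes. The 4 members whose interval reached past 1.25-fold were PSMB10, PSMB11, PSMD5 and PSMD9, all on the higher side. Over all 40, the interval of the ratio reached no lower than 0.806 (PSMA8) and no higher than 1.40 (PSMB10). The PSMA8 probe set read below the negative control medians on these 5 arrays, so its interval bounds the signal and not its expression. The next lowest bound was 0.824 (PSMA1). The typical interval reached 1.04 (median, log2) to each side with replicate 1 included and 0.19 without it. The SD over the 3 sicontrol arrays had a median of 0.065 for the members and 0.099 for all genes. In the brightest 25% of genes it was 0.064 for the members and 0.062 for all such genes.

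**Figure D2:**
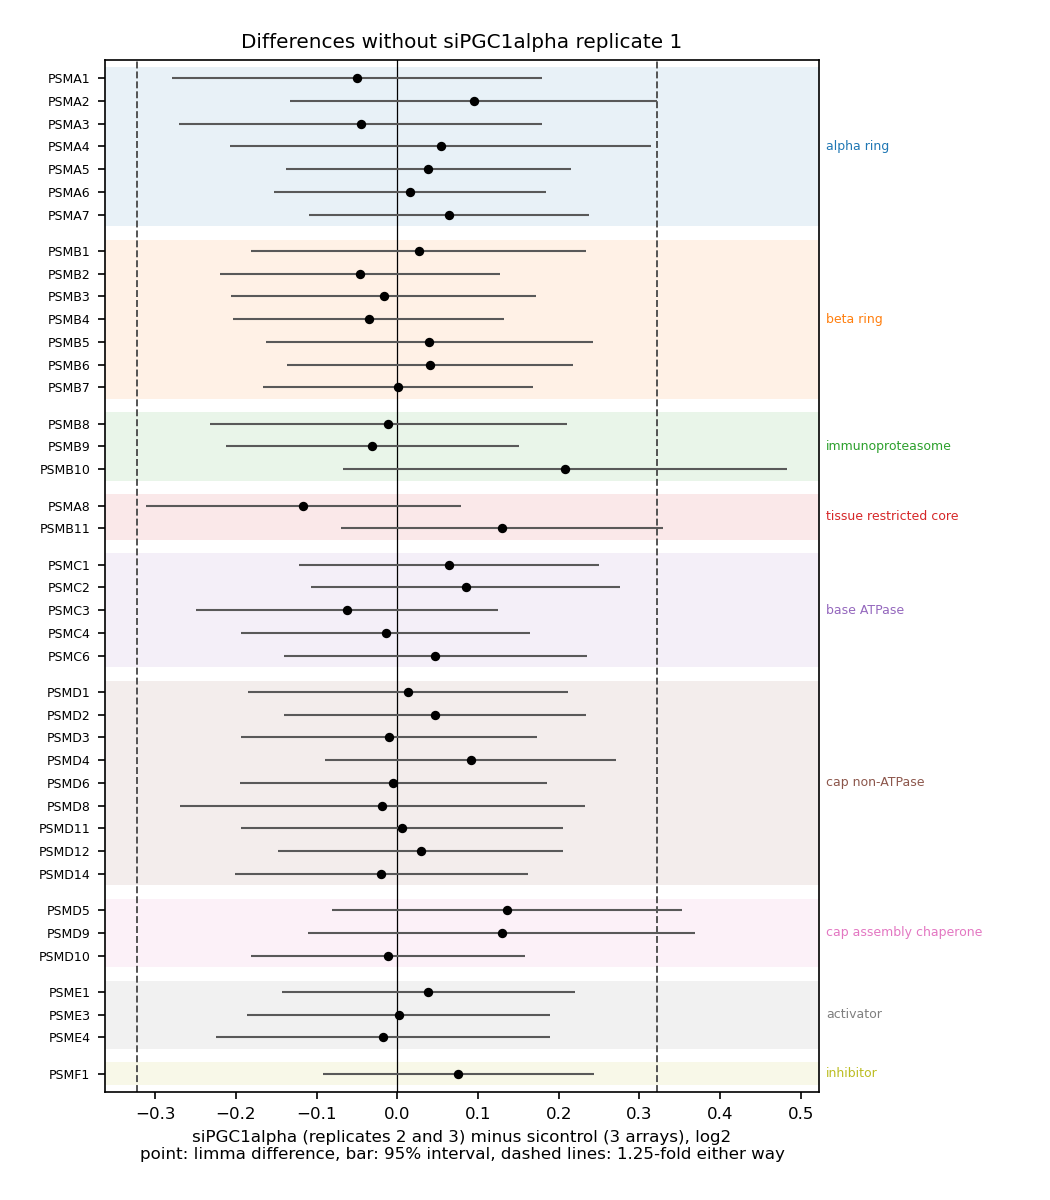
Difference between siPGC1alpha replicates 2 and 3 and the 3 sicontrol arrays (log2, horizontal axis) for the 40 genes, with limma's 95% interval as a bar and dashed lines at 1.25-fold. Every bar crosses 0, and the bars of PSMB10, PSMB11, PSMD5 and PSMD9 pass the right dashed line.

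The 3 constitutive catalytic subunits each had an interval within 1.25-fold without replicate 1. PSMB5, the chymotrypsin-like site and the main target of the drug bortezomib, read 9.51, 10.35 and 10.37 on siPGC1alpha replicates 1, 2 and 3, against 10.43, 10.24 and 10.29 on the sicontrol arrays. Without replicate 1 its difference was 0.040 (SE 0.085), and with it -0.25 (SE 0.31). Replicates 2 and 3 fell inside the range of the sicontrol arrays. PSMB6, the caspase-like site, read 10.42, 10.41 and 10.44 on the siPGC1alpha arrays, against 10.44, 10.36 and 10.35 on the sicontrol arrays. It was the member whose signal on replicate 1 lay closest to the sicontrol mean, 0.035 above it. PSMB7, the trypsin-like site, read 9.90, 11.27 and 11.28 on the siPGC1alpha arrays, against 11.31, 11.27 and 11.26 on the sicontrol arrays. The differences of PSMB6 and PSMB7 without replicate 1 were 0.040 (SE 0.074) and 0.00067 (SE 0.070).

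The other beta-ring genes encode subunits without a catalytic site. PSMB1 read 4.71, 9.59 and 9.49 on the siPGC1alpha arrays, against 9.62, 9.44 and 9.48 on the sicontrol arrays. PSMB2 read 9.68, 10.99 and 11.06, against 11.10, 11.03 and 11.08, and its siPGC1alpha replicate 2 was below all sicontrol arrays while replicate 3 was not. PSMB4 read 8.87, 10.54 and 10.56, against 10.55, 10.59 and 10.61. Differences without replicate 1 were 0.026 (SE 0.087) for PSMB1, -0.046 (SE 0.073) for PSMB2, -0.017 (SE 0.079) for PSMB3 and -0.035 (SE 0.070) for PSMB4. None of the 7 beta-ring genes had groups that did not overlap.

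The inducible catalytic subunits of the immunoproteasome were all measured. PSMB8, which replaces PSMB5, read 8.09, 8.63 and 8.66 on the siPGC1alpha arrays, against 8.78, 8.65 and 8.54 on the sicontrol arrays, with a difference of -0.011 (SE 0.093) without replicate 1. PSMB9, which replaces PSMB6, read 7.18, 8.67 and 8.63, against 8.66, 8.75 and 8.63, with a difference of -0.031 (SE 0.076). Both genes lie in the HLA region, and PSMB8 has an antisense neighbour, PSMB8-AS1, whose share in the probe signal was not tested. PSMB10, which replaces PSMB7, read 8.61, 7.996 and 7.92 on the siPGC1alpha arrays, against 7.92, 7.77 and 7.56 on the sicontrol arrays. Its difference of 0.21 (SE 0.12, 95% interval -0.07 to 0.48) was the largest of the 40 without replicate 1, and 0.42 (SE 0.28) with it. The groups overlapped, because sicontrol replicate 1 reached siPGC1alpha replicate 3, and the SD of its sicontrol values, 0.18, was also the largest of any member.

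A ratio within each array sets an inducible subunit against the constitutive one it replaces. Signals of different probe sets are not on a common scale, so that only the change of the ratio between arrays carries information. PSMB8 minus PSMB5 was -1.42, -1.72 and -1.71 on the siPGC1alpha arrays, against -1.65, -1.59 and -1.75 on the sicontrol arrays. For PSMB9 minus PSMB6 the values were -3.24, -1.74 and -1.81, against -1.79, -1.61 and -1.72. Replicates 2 and 3 lay inside or near the range of the sicontrol arrays in both pairs. PSMB10 minus PSMB7 was -1.29, -3.28 and -3.36, against -3.39, -3.49 and -3.70, so that each siPGC1alpha array was above each sicontrol array. These ratios are given without a test, and without replicate 1 the last differed by 0.21 on average, the size seen for PSMB10 itself.

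**Figure D3:**
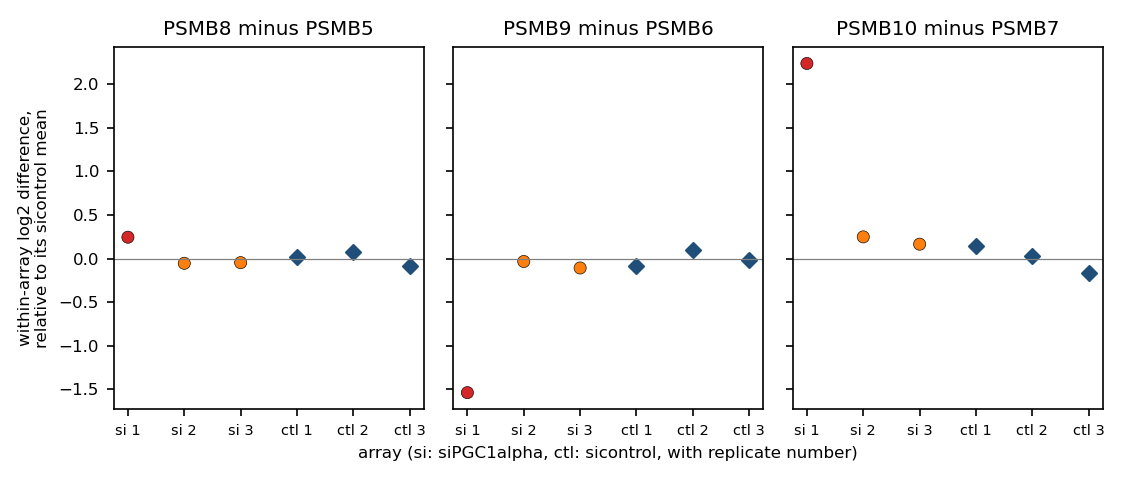
Log2 signal of each inducible subunit minus that of the constitutive subunit it replaces, relative to the mean of the sicontrol arrays (vertical axis), for the 3 siPGC1alpha arrays (circles, replicate 1 in red) and the 3 sicontrol arrays (diamonds). Replicate 1 is 1.54 below the sicontrol mean for PSMB9 and PSMB6 and 2.24 above it for PSMB10 and PSMB7. Replicates 2 and 3 stay near 0 for the pairs of PSMB8 and PSMB9, and lie above every sicontrol array for PSMB10 and PSMB7.

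Upstream sequences are shown for the catalytic pair PSMB5 and PSMB8, and for PSMB10 and PSMD9, which had differences among the highest of the members. PSMD5 and PSMB11, whose differences of 0.135 and 0.130 without replicate 1 were above the 0.129 of PSMD9, are not shown. Each run holds the 250 bases before the gene's start, 5′ to 3′, from RefSeq on GRCh38.p14, with motif matches in capitals.
PSMB5, chr14:23035221-23035470, minus strand: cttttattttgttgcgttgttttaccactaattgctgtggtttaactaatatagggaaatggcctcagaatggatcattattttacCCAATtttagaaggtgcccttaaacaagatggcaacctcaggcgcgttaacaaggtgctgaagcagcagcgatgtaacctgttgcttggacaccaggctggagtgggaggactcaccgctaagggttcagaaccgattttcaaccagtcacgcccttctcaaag
PSMB8, chr6:32844680-32844929, minus strand: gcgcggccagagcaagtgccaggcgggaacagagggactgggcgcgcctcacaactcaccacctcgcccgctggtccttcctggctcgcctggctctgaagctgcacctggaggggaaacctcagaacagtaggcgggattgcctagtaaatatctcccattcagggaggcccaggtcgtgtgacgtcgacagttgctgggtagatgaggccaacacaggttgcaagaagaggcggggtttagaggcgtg
PSMB10, chr16:67936851-67937100, minus strand: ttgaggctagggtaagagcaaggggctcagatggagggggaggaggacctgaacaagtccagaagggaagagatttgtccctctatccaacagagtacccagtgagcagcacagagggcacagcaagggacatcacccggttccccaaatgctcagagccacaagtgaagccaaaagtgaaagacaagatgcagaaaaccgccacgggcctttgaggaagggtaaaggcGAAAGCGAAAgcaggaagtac
PSMD9, chr12:121888540-121888789, plus strand: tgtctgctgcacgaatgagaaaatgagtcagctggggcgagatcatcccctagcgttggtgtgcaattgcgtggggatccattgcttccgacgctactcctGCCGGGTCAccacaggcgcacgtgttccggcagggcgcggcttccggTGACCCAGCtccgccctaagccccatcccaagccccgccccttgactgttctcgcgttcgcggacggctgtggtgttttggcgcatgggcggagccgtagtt
The capitals mark a CCAAT box in PSMB5, an interferon-stimulated response element (GAAA, any 2 bases, GAAA) in PSMB10 and the core of an antioxidant response element (TGACNNNGC), the kind of site NFE2L1 is known to bind, at 2 places in PSMD9.

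Entries existed for 35 of the 40 members, and none is shown for PSMA7, PSMB1, PSMB6, PSMB7 or PSMD4. Both strands were searched for 6 motifs, which did not overlap each other except in PSMD14, where a pair of CCAAT matches did. The antioxidant response element core stood in 8 of 35 (22.9%), namely PSMB3, PSMB9, PSMD3, PSMD5, PSMD9, PSMD12, PSME1 and PSME4, and in 11% of 27305 upstream windows of the same length. The interferon-stimulated element stood in PSMA4, PSMB4 and PSMB10 (8.57%, against 3.07% of all windows). A gamma-activated site (TTCNNNGAA) was found in 5 of 35 (14.3%, against 6.78%), and CCAAT in 15 of 35 (42.9%, against 33%). For partners of PGC-1alpha, the nuclear respiratory factor 1 site (GCGC, any 2 bases, GCGC) was found in PSMA6, PSMA8, PSMB4 and PSMD6 (11.4%, against 7.58%), and the estrogen-related receptor site (TCAAGGTCA) in 0 of 35 (against 0.319%). A match describes letters in the window only.

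PSMA8 and PSMB11 replace core subunits in single tissues, PSMA8 in the testis and PSMB11 in the cortex of the thymus. PSMA8 read 4.21, 2.86 and 2.95 on the siPGC1alpha arrays, against 3.09, 2.94 and 3.04 on the sicontrol arrays. Other than on replicate 1, these signals lie below the negative control medians given above. Its difference without replicate 1 was -0.12 (SE 0.082), the furthest below 0 of all members. PSMB11 read 7.12, 5.83 and 5.97, against 5.82, 5.80 and 5.70, with a difference of 0.13 (SE 0.084). On replicate 1 they lay above the sicontrol mean by 1.19 and 1.35, and all genes of the same brightness (bins of 10% of genes) lay above it by medians of 1.10 and 1.32. PSMB11 was also the only member whose groups did not overlap with all 6 arrays (higher, as for 5.42% of all genes), and 0 members were lower in this way (1.85% of all genes).

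The alpha-ring genes form the gate of the barrel and its outer wall. PSMA1 read 7.72, 9.18 and 9.05 on the siPGC1alpha arrays, against 9.30, 9.07 and 9.12 on the sicontrol arrays, with a difference of -0.050 (SE 0.096) without replicate 1. PSMA6 read 6.24, 10.97 and 10.93, against 10.94, 10.95 and 10.91, with a difference of 0.016 (SE 0.071). On PSMA6 the 5 arrays other than replicate 1 lay within a few hundredths of each other, and replicate 1 lay 4.69 below the sicontrol mean. Differences of the remaining 5 were 0.095 for PSMA2, -0.045 for PSMA3, 0.054 for PSMA4, 0.039 for PSMA5 and 0.064 for PSMA7 (SE 0.073 to 0.11). PSMA7 was the alpha-ring gene whose groups did not overlap once replicate 1 was left out, at 10.48 and 10.49 on siPGC1alpha replicates 2 and 3, against 10.46, 10.43 and 10.36 on the sicontrol arrays.

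The ATPases at the base of the cap unfold the substrate. PSMC3 read 9.77, 10.00 and 9.93 on the siPGC1alpha arrays, against 9.95, 10.06 and 10.07 on the sicontrol arrays, with a difference of -0.062 (SE 0.079) without replicate 1. PSMC4 read 11.29, 10.00 and 9.91, against 10.01, 9.94 and 9.96, with a difference of -0.014 (SE 0.075). PSMC4 was bright on the sicontrol arrays and brighter still on replicate 1, unlike the other ATPases, of which PSMC6 was at 5.89 there against a sicontrol mean of 9.26. Differences without replicate 1 were 0.064 for PSMC1, 0.085 for PSMC2 and 0.047 for PSMC6 (SE 0.078 to 0.080).

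The other cap subunits bind ubiquitin, remove it, or hold the cap together. PSMD2, the large scaffold subunit that docks ubiquitin shuttles, read 7.66, 11.28 and 11.16 on the siPGC1alpha arrays, against 11.23, 11.14 and 11.16 on the sicontrol arrays. PSMD4, a ubiquitin receptor, read 8.44, 10.52 and 10.54, against 10.51, 10.43 and 10.38, with a difference of 0.091 (SE 0.076) without replicate 1. PSMD14, the metalloprotease that cleaves the ubiquitin chain from the substrate, read 11.00, 9.81 and 9.88, against 9.93, 9.83 and 9.84, with a difference of -0.020 (SE 0.076). Replicate 1 was thus the highest array for PSMD14 and the lowest for PSMD2 and PSMD4. PSMD12, a scaffold subunit of the lid, read 5.86, 10.28 and 10.30, against 10.32, 10.22 and 10.24, with a difference of 0.029 (SE 0.074). The difference of PSMD2 was 0.046 (SE 0.078), and those of PSMD1, PSMD3, PSMD6, PSMD8 and PSMD11 lay between -0.018 for PSMD8 and 0.013 for PSMD1.

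PSMD5, PSMD9 and PSMD10 encode chaperones that help to assemble the base of the cap and leave it afterwards. PSMD5 read 5.96, 9.73 and 9.77 on the siPGC1alpha arrays, against 9.68, 9.68 and 9.48 on the sicontrol arrays, with a difference of 0.14 (SE 0.091) without replicate 1 and of -1.13 (SE 1.04) with it. Replicates 2 and 3 both lay above the sicontrol arrays, which themselves ranged over more than the gap. PSMD9 read 4.52, 8.01 and 8.14, against 8.09, 7.83 and 7.93, with a difference of 0.13 (SE 0.10), and its groups overlapped. PSMD10, also called gankyrin and known as an oncoprotein of liver cancer, read 7.55, 9.75 and 9.68, against 9.71, 9.73 and 9.73, with a difference of -0.011 (SE 0.071).

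Activators open the barrel without the ATPase cap, and PSMF1 was first described as an inhibitor of it. PSME1, an interferon-inducible activator subunit, read 9.27, 10.49 and 10.49 on the siPGC1alpha arrays, against 10.52, 10.44 and 10.39 on the sicontrol arrays. PSME3, the activator of the nucleus, read 8.89, 10.62 and 10.73, against 10.70, 10.61 and 10.71. PSME4 read 7.27, 8.67 and 8.87, against 8.74, 8.82 and 8.80. Their differences without replicate 1 were 0.038 (SE 0.076), 0.0018 (SE 0.079) and -0.017 (SE 0.087), each smaller than its SE. PSMF1 read 8.31, 11.40 and 11.37, against 11.28, 11.34 and 11.31, with a difference of 0.076 (SE 0.070), and its siPGC1alpha replicates 2 and 3 lay above the sicontrol arrays.

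Without replicate 1, the groups did not overlap for 6 of 40 members on the higher side (15%, against 11.3% of all genes) and for 0 on the lower side (8.42% of all genes). The 6 were PSMA7, PSMB11, PSMC2, PSMD4, PSMD5 and PSMF1. Their ratios had 95% intervals that all included 1, and they belong to 6 different roles. Within the brightest 25% of genes, the groups did not overlap on the higher side for 5 of 34 members and 691 of all 4422 such genes. On the lower side this held for 0 of these members and for 233 of all such genes. Among the sicontrol arrays, replicate 1 was the highest for 25 of 40 members (62.5%, against 34.7% of all genes).

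Genes that assemble, regulate or feed the proteasome also gave no call. Of 7 genes, namely chaperones of the core particle together with PAAF1 and AKIRIN2, 0 passed in either direction with or without replicate 1. Their median difference without replicate 1 was 0.045. PSMG4, PSMG3 and PSMG2 differed by 0.13 (SE 0.087), 0.057 (SE 0.079) and 0.060 (SE 0.091). Of 9 measured genes for cap subunits and cap-bound enzymes outside the symbol rule, 0 passed and the median was 0.028. UBE3C, a ubiquitin ligase of the cap, differed by 0.13 (SE 0.074), ZFAND5, a stimulator of the proteasome, by 0.093 (SE 0.075) and SEM1, a small lid subunit, by 0.15 (SE 0.12). The sicontrol mean of SEM1, 5.37, was close to the 95th percentile of the negative control probe sets, 5.36.

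Regulators of proteasome gene transcription (10 measured) had a median of -0.00052, and 0 passed. NFE2L1 itself read 11.94, 11.35 and 11.35 on the siPGC1alpha arrays, against 11.26, 11.46 and 11.39 on the sicontrol arrays, and is added here to the genes chosen by p. HSF1, the heat shock factor, differed by 0.11 (SE 0.081), NFE2L2 by 0.094 (SE 0.081) and KEAP1, which marks NFE2L2 for breakdown, by -0.10 (SE 0.096). The 12 genes of ubiquitin, its activation and its shuttles had a median of 0.022, and 0 passed, with UBQLN2, RAD23B and UFD1, which all deliver ubiquitin-tagged proteins, at 0.096 (SE 0.094), 0.071 (SE 0.071) and 0.089 (SE 0.095).

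The list closest to the immunoproteasome held 11 measured regulators and genes of peptide supply, with a median of -0.020, and 0 passed. LAP3, an aminopeptidase, read 9.17, 10.08 and 10.22 on the siPGC1alpha arrays, against 9.93, 9.97 and 9.96 on the sicontrol arrays, with a difference of 0.20 (SE 0.079, limma adjusted p = 0.9998) without replicate 1. IRF1, which activates immunoproteasome genes, read 7.84, 8.64 and 8.63, against 8.46, 8.48 and 8.53, with a difference of 0.14 (SE 0.071). NLRC5, which activates HLA class I genes, differed by -0.20 (SE 0.10), in the opposite direction. Leukocytes are rich in immunoproteasomes, and 11 blood cell markers (10 of leukocytes, and HBB of red cells) had a summed log2 signal of 78.3 on siPGC1alpha replicate 1 and of 67.3 to 67.7 on replicates 2 and 3, against 68.4 to 68.9 on the sicontrol arrays. On the sicontrol arrays 4 of the 11 (PTPRC, CD3D, MS4A1 and LYZ) had means below 5.36, the 95th percentile of the negative control probe sets, and the other 7 lay above it, with CD68 the highest at 10.77. PTPRC, the pan-leukocyte marker, was at 4.49. On replicate 1 the median deviation of the 11 from the sicontrol mean was 1.27, beside 1.10 for the dimmest 10% of all genes. It was 1.32 for all genes with sicontrol means of 5.33 to 6.06, the bin of 10% that holds the markers' median of 5.75. All 11 lay below 0 without replicate 1 and 0 passed, and their part in the signals of PSMB8, PSMB9 and PSMB10 was not tested.

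On siPGC1alpha replicate 1 most proteasome genes read low, by unequal amounts. Of the 40 members, 34 lay below the sicontrol mean (85%, against 38.2% of all genes) and 26 lay more than 1 below it (65%, against 25.3%), while 4 lay more than 1 above (10%, against 38.9%). Below all 3 sicontrol arrays were 34 members (36.8% of all genes), and above all 3 were 5 (60% of all genes). The members are mostly bright, with 34 of 40 in the brightest 25% of genes, and on this array bright genes were low in general. Within that brightest 25%, 24 of 34 members lay more than 1 below (70.6%, against 61.9% of all such genes), 6 lay more than 3 below (17.6%, against 23.4%) and 2 lay more than 1 above (5.88%, against 4.91%). PSMB6, PSMC4 and PSMD14 were the 3 bright members above the sicontrol mean (8.82%, against 19.3%). In the brightest 10%, 3 of 24 members lay more than 3 below (12.5%, against 32.2% of all such genes). The median deviation there was -1.39 for the members and -2.13 for all such genes. For the brightest 25% it was -1.48 for the members and -1.57 for all such genes. These shares describe 1 array and were not tested. Markers of other cells also differed on this array, where dim genes read high and bright genes low in general. The median deviation was 1.10 in the dimmest 10% of all genes, beside -2.13 in the brightest 10%. It was 1.41 for the luminal and epithelial markers, 1.02 for the endothelial and -1.85 for the mesenchymal ones. The luminal and endothelial lists had median sicontrol means of 6.61 and 6.57. All genes in the bin of 10% with sicontrol means of 6.06 to 6.70 had a median deviation of 1.23. The summed log2 signal of 11 luminal and epithelial markers was 88.0 on replicate 1. It was 77.9 to 78.1 on replicates 2 and 3, against 77.2 to 77.9 on the sicontrol arrays. On replicate 1, 9 of the 11 lay above the sicontrol mean, KRT19 the furthest at 3.30. KRT18 and EPCAM lay below it, at -3.86 and -0.53. The sum of 7 endothelial markers was 48.7 and 40.3 to 40.8, against 39.9 to 41.6, with 7 of 7 above. The sum of 6 mesenchymal markers was 59.9 and 68.1 to 68.2, against 68.3 to 68.4, with 5 of 6 below. Of these markers, 3 luminal, 3 endothelial and 0 mesenchymal ones had sicontrol means below 5.36, and their part in the signals of the members was not tested.

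The furthest below were PSMB1 at -4.81, PSMA6 at -4.69, PSMD12 at -4.40, PSMD5 at -3.66 and PSMD2 at -3.52. The furthest above were PSMB11 at 1.35, PSMC4 at 1.32, PSMA8 at 1.19, PSMD14 at 1.14 and PSMB10 at 0.86. PSMC4 and PSMD14 were apart from the other constitutive members, of which 32 of 35 lay below the sicontrol mean, PSMB6 being the third above it. The SD of the deviations over the 34 bright members was 1.43, beside 1.76 over all genes of that brightness. The 3 members that are assembly chaperones of the cap lay more than 1 below, at -3.66, -3.43 and -2.17. Of the 7 genes listed as core particle chaperones, PAAF1 and AKIRIN2, 4 did so. These ran from POMP, which matures the core particle, at -5.69 to PAAF1 at -1.33, and AKIRIN2 lay at 0.040. Between replicates 2 and 3 and the sicontrol means, by contrast, no member deviated by more than 0.25.

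**Figure D4:**
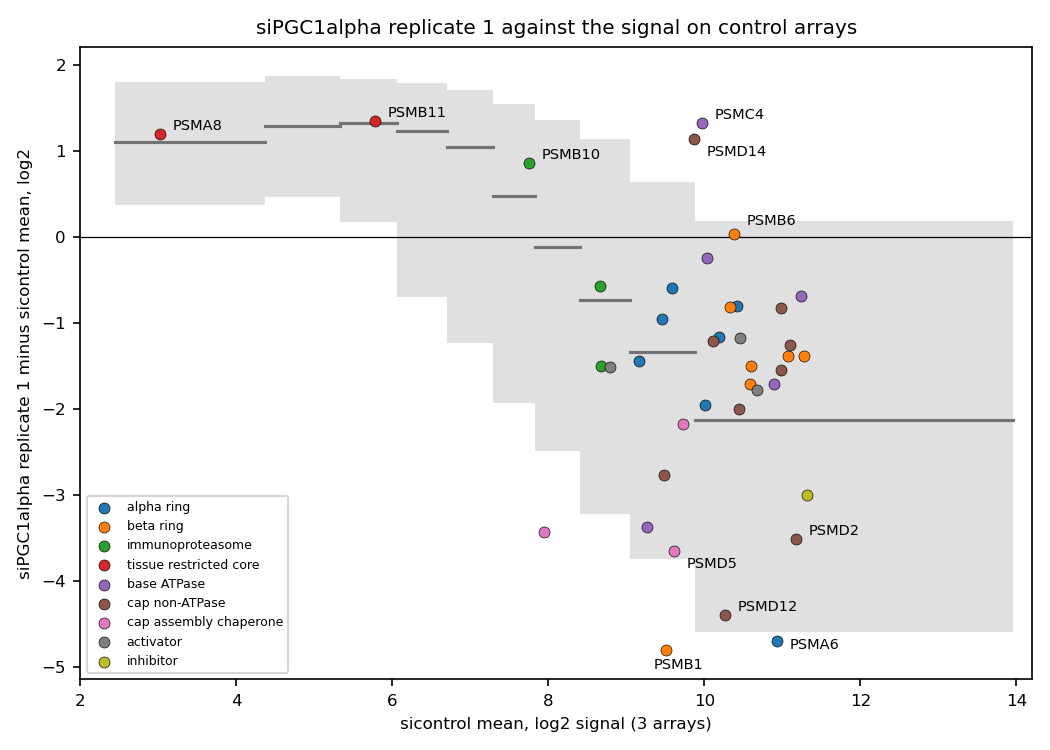
Signal on siPGC1alpha replicate 1 minus the sicontrol mean (log2, vertical axis) against the sicontrol mean (log2, horizontal axis) for the 40 genes, coloured by role. Grey lines are medians and grey boxes the middle 80% of all genes in bins of 10% of genes by sicontrol mean. The members follow the fall of the grey lines, with PSMC4 and PSMD14 above the boxes and PSMB1, PSMA6 and PSMD9 below them.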

How the data were processed

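The deposited tables hold log2 signals of each sample's probe sets. That they are log2 was read from their range, and the sources used here do not give the authors' background correction or normalization. Of 24320 probe sets, 17709 had 1 gene symbol in the platform annotation and 0 had several. For 20 genes with several probe sets the highest mean was kept, and no dim genes were removed. A further table's 6 columns, whose names match no sample, were not used.

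Groups were tested over all 17687 genes in limma 3.58.1 (R 4.3.3, lmFit and eBayes, no covariates) with Benjamini-Hochberg adjustment at 0.05, with 6 arrays and without siPGC1alpha replicate 1. The code was tested on simulated data. Upstream sequences came from RefSeq (GRCh38.p14).

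The members, the companion lists and the omission of that array were chosen with earlier results of these data known. Statistics are given for the catalytic, tissue-restricted, activator and inhibitor genes, for the 5 members of smallest p in each direction without replicate 1, and for the 5 furthest on each side on replicate 1. Each companion list is represented by the 3 genes of smallest p, and other genes were chosen after their values were seen. Alternatives were dim-gene filters, averaged probe sets, quantile normalization, median centring, trend and robust eBayes, a replicate block, a fit that kept unnamed probe sets too, a threshold of 0.1, array weights and each array left out.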

Additional observations from a re-analysis of the deposited data

Results flagged for a closer look

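Outside the genes tested, 4 classes of probe sets had a higher median on siPGC1alpha replicate 1, the array on which most proteasome genes read low, than on any sicontrol array. It was 6.50 for the 63 ERCC spike-in probe sets, against at most 5.11 on a sicontrol array. For the 612 negative control probe sets it was 3.79, against at most 3.44. For the 551 unmapped transcripts it was 7.09, against at most 6.62, and for the 3188 probe sets without a gene name 7.01, against at most 6.50. The 2197 positive control probe sets went the other way, with a median of 8.41 on replicate 1, against 10.39 to 10.43 on the sicontrol arrays.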

How the results depend on the processing

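Counts of calls were 0 under every alternative run, both for the 40 members and for all genes, with 6 arrays and without siPGC1alpha replicate 1 (the lowest limma adjusted p was 0.115 over all genes, with array weights, and 0.439 over the members, without siPGC1alpha replicate 3). The median difference of the members over 6 arrays, -0.50, lay between -0.72 and 0.015 as each array was left out, and only leaving out siPGC1alpha replicate 1 turned its sign. It was -0.29 after quantile normalization and 0.015 with array weights, and the cause was not tested. Without replicate 1 the median, 0.015, lay between -0.00050 (quantile normalization) and 0.029 (replicate block, and without sicontrol replicate 1) over all alternatives, all smaller than the spread between arrays. The block rested on shared numbers only, since the deviations of same-numbered samples correlated at -0.25, -0.18 and -0.086 over 6 arrays. Without siPGC1alpha replicate 1 the correlations were 0.093 for number 2 and -0.035 for number 3. The block changed no call, with limma adjusted p of at least 0.662 without replicate 1. For 25 members with full statistics, 322 differences were recomputed without replicate 1. Of these, 320 moved by less than the replicate SD and 26 changed sign, none past the threshold. With replicate 1 included, 24 of 25 moved by more than that SD and 15 changed sign. No detection calls were used. Without replicate 1 PSMA8 read below the negative control medians, and the sicontrol mean of PSMB11, 5.77, lay above 5.36, the 95th percentile of the negative controls.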
